A study of Mus musculus with 10 samples.

Results

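The genes of the VEGF family were followed through lung RNA-seq of 10 mice: the ligands Vegfa, Vegfb, Vegfc and Pgf, the receptor tyrosine kinases Flt1 (VEGFR1), Kdr (VEGFR2) and Flt4 (VEGFR3), and the co-receptors Nrp1 and Nrp2. They were chosen by name, with earlier results of these data known. All rows of the deposited transcript table that carry 1 of these 9 symbols were taken. This gave 9 of 24394 symbols and 24 of 34943 rows with a symbol. Vegfa had 9 rows, Nrp2 had 6, Vegfb and Pgf had 2 each, and the other 5 genes had 1 row each. All 9 gene sums reached a mean of 1 FPKM (fragments counted per kilobase of transcript and scaled to the depth of the library) and entered the fits, and 16 of the 24 rows did so. The mice were female BALB/c animals, bought as young adults, of wild type with no engineered allele. Each library was taken as the lung tissue of 1 mouse. Saline mice (n = 3) received saline only. OVA mice (n = 3) were sensitized by intraperitoneal ovalbumin in alum, challenged with intranasal ovalbumin and given oral vehicle, a model of allergic asthma. Herb mice (n = 4, called DSE in the study) had the ovalbumin protocol together with an oral ethanol extract of Descurainia sophia seeds. The OVA vs. Saline comparison asks what the model changed, and Herb vs. OVA what differed under the extract. Each pair of comparisons shares a group of libraries, so their values are given side by side and are not independent.

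As background, VEGF-A is made in the lung largely by alveolar epithelial cells and acts on the capillary endothelium beside them, where KDR carries most of the signal for survival, growth and permeability. FLT1 binds VEGF-A, VEGF-B and PlGF (the product of Pgf) tightly but signals weakly, and its soluble form is a decoy. FLT4 answers to VEGF-C and is best known in lymphatic endothelium, while NRP1 and NRP2 bind both VEGFs and class 3 semaphorins. Alternative splicing of Vegfa near its end decides whether the protein carries the basic, heparin-binding stretches encoded by exons 6 and 7, and so whether it stays near the producing cell or diffuses.

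These exons separate the Vegfa rows of the table, so their sequences are shown, read 5′ to 3′ on the minus strand of GRCm38.p6, the assembly behind the mm10 build of the study, in a gene that spans chr17:46016993-46032377. Exons were numbered along the GENCODE transcript paired with NM_001025250. Exon 6 (chr17:46022277-46022348, 72 bases, 24 whole codons) is in capitals because it is the piece by which the longest row differs from NM_009505. Exon 7 (chr17:46020991-46021122, 132 bases) is absent from NM_001025257. The coding end of exon 8 (chr17:46018858-46018879, 22 bases) has the TGA stop codon in capitals and is shown as the end to which the exons before it are joined.
Vegfa exon 6: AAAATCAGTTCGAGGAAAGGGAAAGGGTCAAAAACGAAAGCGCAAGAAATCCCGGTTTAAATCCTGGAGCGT
Vegfa exon 7: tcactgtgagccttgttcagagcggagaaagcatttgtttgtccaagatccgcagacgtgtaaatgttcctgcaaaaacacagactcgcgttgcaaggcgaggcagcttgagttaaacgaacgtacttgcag
Vegfa exon 8, coding: atgtgacaagccaaggcggTGA

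Of the 9 Vegfa rows, 6 were paired with a GENCODE transcript of this assembly. NM_001025250 and NM_001287056 held both exons 6 and 7, NM_009505 and NM_001287057 held exon 7 only, and NM_001025257 and NM_001287058 held neither. NM_009505 and NM_001287057 were paired with the same transcript, so the table can split 1 splice form over both of them. NM_001110266, NM_001110267 and NM_001110268 were not paired with a transcript here.

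For the receptors that carried the largest differences, the 250 bases before the annotated start are shown, because genes of endothelial cells are commonly bound by ETS factors whose core is GGAA, searched here on both strands as GGAA or TTCC and set in capitals. Kdr was read from chr5:75978456-75978705 and Flt1 from chr5:147726012-147726261, both on the minus strand, with windows and starts from RefSeq (GRCm38.p6).
Kdr, 250 bases before the start: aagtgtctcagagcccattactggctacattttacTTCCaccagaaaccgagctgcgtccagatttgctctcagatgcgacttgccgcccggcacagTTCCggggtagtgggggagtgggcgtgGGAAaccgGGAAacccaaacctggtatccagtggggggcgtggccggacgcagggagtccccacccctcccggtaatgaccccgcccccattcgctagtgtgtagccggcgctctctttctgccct
Flt1, 250 bases before the start: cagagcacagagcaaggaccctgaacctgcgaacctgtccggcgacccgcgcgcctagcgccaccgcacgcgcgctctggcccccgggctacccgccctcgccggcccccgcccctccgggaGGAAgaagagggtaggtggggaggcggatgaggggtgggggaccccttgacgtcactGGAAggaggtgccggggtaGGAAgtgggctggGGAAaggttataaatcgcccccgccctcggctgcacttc
Each window held 4 such matches. At least that many were present in 33.4% of the 32851 windows of the same length before annotated starts, 93.4% of windows held at least 1, and the median window held 3. The matches are a description of the letters and no evidence of binding.

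Libraries differed in composition in a way that bears on every value below. An FPKM is a share of a library, and rows without a gene symbol held 73.8 to 76.7% of all FPKM in Saline, 91.9 to 92.5% in OVA and 81.6 to 87.8% in Herb. The ribosomal precursor Rn45s was at 1200.7 to 1385.9 FPKM in Saline, 10014 to 13531 in OVA and 3229.7 to 7019.1 in Herb. The 75th percentile over named genes was 9.20 to 9.29 FPKM in Saline, 3.68 to 4.58 in OVA and 5.79 to 7.43 in Herb, with no overlap. The median log2 fold change of all 11205 genes tested was -0.75 for OVA vs. Saline, 0.48 for Herb vs. OVA and -0.27 for Herb vs. Saline. Each result is therefore given as deposited and again after every library was divided to a common 75th percentile, where these medians were 0.07, 0.01 and 0.09. Lung markers were present in every library: Sftpc of alveolar type 2 cells was at 210 FPKM or more and the endothelial cadherin Cdh5 at 8.22 FPKM or more. From the smallest values the libraries were estimated to hold 14700000 to 29400000 mapped fragments, and the single-row members rested on 39 to 110 fragments for Vegfc and 709 to 6409 for Kdr, so that counting error was at most 16.1% for Vegfc and 3.75% for Kdr. Bulk tissue cannot tell fewer cells of a type from less RNA per cell.

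By named rows the receptors Kdr and Flt1 were the most abundant members in Saline lung, and in OVA lung they overlapped with Vegfa. Mean levels, which FPKM gives per length, were 45.7 ± 7.26 FPKM (SD, n = 3) for Kdr, 29.6 ± 3.38 for Flt1 and 14.9 ± 1.85 for Vegfa, and the libraries of these 3 genes did not overlap. Flt4 at 10.9 ± 2.10, Nrp1 at 9.38 ± 0.656 and Nrp2 at 8.89 ± 1.25 overlapped one another. Vegfb stood at 3.71 ± 0.513, above Vegfc at 2.07 ± 0.435 and Pgf at 1.38 ± 0.216, and Vegfc and Pgf overlapped. In OVA lung the first places were no longer separate: Vegfa was at 11.9 ± 3.65 FPKM (SD, n = 3), Flt1 at 9.33 ± 3.36 and Kdr at 8.59 ± 2.33. In Herb lung Flt1 at 16.8 ± 5.27 FPKM (SD, n = 4) and Kdr at 15.4 ± 5.42 overlapped, and Vegfa at 12.5 ± 12.2 had a spread as large as its mean. When the neighbouring rows without a symbol that are described below were added, Vegfa and Flt1 overlapped in Saline, at 39.7 ± 5.25 and 39.5 ± 2.71 FPKM (SD, n = 3).

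**Figure D1:**
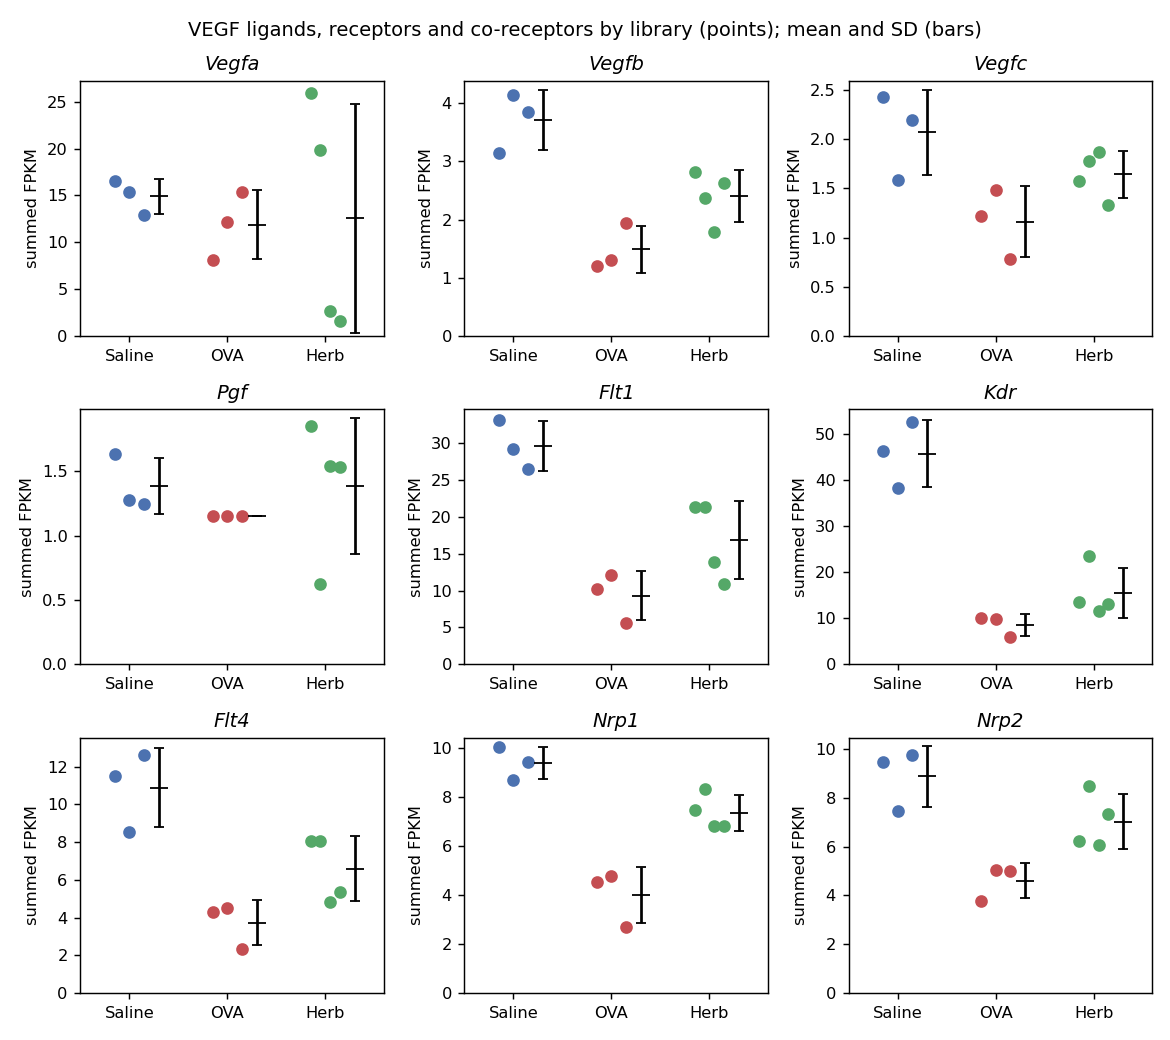
Summed FPKM of each VEGF gene (one panel per gene, vertical axis in FPKM from 0) in every Saline, OVA and Herb library as points, with the mean and SD of the group as bars. The OVA points of Kdr sit between 5.90 and 10.1 and below every Saline point, whereas the 4 Herb points of Vegfa run from 1.65 to 25.9.

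As deposited, 7 of the 9 genes fell in OVA vs. Saline (limma, adjusted p under 0.05), compared with 57.9% of all genes tested, and 8 had groups that did not overlap, compared with 67.6%. In Herb vs. OVA 5 rose, compared with 44% of all genes, and 4 did not overlap, compared with 50.2%. The members lower in Herb vs. Saline were 2, compared with 22.7%, and 5 did not overlap, compared with 43.6%. After rescaling to the 75th percentile 1 fell in OVA vs. Saline, against a background of 17.2%, and 4 did not overlap, against 54.5%. None of the 9 passed in Herb vs. OVA after rescaling, where 0.803% of all genes did, and 0 had groups that did not overlap, against 22.5%. In the same limma fit 0 of 9 had an unadjusted p under 0.05, compared with 3007 of all 11205 genes. After rescaling 1 was lower in Herb vs. Saline, against 5.11%, and 1 did not overlap, against 39.3%. Read against the rest of the table, these counts are no result about the family. The gene called in both scalings was Kdr.

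Kdr (NM_010612, chr5:75932827-75979072), the main signalling receptor, was at 46.3, 38.2 and 52.7 FPKM in Saline, 10.1, 9.77 and 5.90 in OVA, and 13.6, 23.4, 11.6 and 13.1 in Herb. All OVA and Herb libraries lay below the lowest Saline library, and all Herb libraries lay above the highest OVA library. It fell by 2.31 ± 0.283 (SE) on the log2 scale in OVA vs. Saline (limma adjusted p = 0.000189), the largest decrease among the 9 members. It rose by 0.76 ± 0.265 in Herb vs. OVA (limma adjusted p = 0.0437) and was still lower in Herb vs. Saline at -1.55 ± 0.265 (limma adjusted p = 0.00930). After rescaling, the levels were 31.7, 26.4 and 36.3 in Saline, 17.5, 13.6 and 8.98 in OVA, and 12.4, 20.1, 12.7 and 12.9 in Herb, on the scale of a common 75th percentile. Saline still stood apart from OVA, but Herb and OVA overlapped. The rescaled change was -1.21 ± 0.257 in OVA vs. Saline (limma adjusted p = 0.00617), where leaving out each library in turn gave adjusted p between 0.00499 and 0.0242. It was 0.13 in Herb vs. OVA (limma adjusted p = 0.764) and -1.08 ± 0.241 in Herb vs. Saline (limma adjusted p = 0.0243). Under quantile normalization, which forces all libraries to 1 distribution, the OVA vs. Saline value was -0.74 and did not pass (limma adjusted p = 0.0707). The rise in Herb vs. OVA as deposited was lost in 9 of the 10 fits that left out a library, and Herb replicate 2, at 23.4 FPKM, stood far above the other Herb libraries.

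Flt1 (NM_010228, chr5:147561604-147726438), the high-affinity receptor of VEGF-A, VEGF-B and PlGF, was at 33.1, 29.1 and 26.4 FPKM in Saline, 10.2, 12.2 and 5.61 in OVA, and 21.3, 21.3, 13.8 and 10.9 in Herb. The Saline libraries were the highest without overlap, and Herb replicate 4 lay among the OVA libraries. Flt1 fell by 1.62 ± 0.313 in OVA vs. Saline (limma adjusted p = 0.00173), but by 0.53 after rescaling (limma adjusted p = 0.167). The difference in Herb vs. OVA was 0.80 ± 0.293 (limma adjusted p = 0.0523) as deposited and 0.17 after rescaling. In Herb vs. Saline it was -0.82 (limma adjusted p = 0.0663) and -0.36 after rescaling.

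Flt4 (NM_008029, chr11:49609679-49652739), the receptor of VEGF-C, was at 11.5, 8.56 and 12.6 FPKM in Saline, 4.31, 4.51 and 2.33 in OVA, and 8.06, 8.06, 4.84 and 5.35 in Herb. No library of OVA overlapped with either other group, and Herb lay between. It fell by 1.35 ± 0.259 in OVA vs. Saline (limma adjusted p = 0.00162) and rose by 0.69 ± 0.242 in Herb vs. OVA (limma adjusted p = 0.0441), a rise lost in 6 of the 10 fits that left out a library. After rescaling the values were -0.36 (limma adjusted p = 0.255) and 0.13. Herb vs. Saline was -0.66 (limma adjusted p = 0.0718) as deposited and -0.24 after rescaling.

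The co-receptors fell less than Kdr in the values as deposited. Nrp1 (NM_008737, chr8:128358591-128505476) was at 10.02, 8.71 and 9.42 FPKM in Saline, 4.51, 4.76 and 2.68 in OVA, and 7.48, 8.31, 6.80 and 6.80 in Herb, so the 3 groups were stacked without overlap. It fell by 1.08 ± 0.177 in OVA vs. Saline (limma adjusted p = 0.000683) and rose by 0.77 ± 0.166 in Herb vs. OVA (limma adjusted p = 0.00861), and this rise passed in all 10 fits that left out a library. After rescaling the 2 values were -0.09 (limma adjusted p = 0.708) and 0.20 (limma adjusted p = 0.478). Herb vs. Saline was -0.32 as deposited (limma adjusted p = 0.181) and 0.11 after rescaling.

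Nrp2 (chr1:62703317-62818692), which also serves VEGF-C, summed over its 6 rows to 9.46, 7.46 and 9.75 FPKM in Saline, 3.77, 5.04 and 4.99 in OVA, and 6.25, 8.49, 6.05 and 7.33 in Herb. The OVA libraries were the lowest without overlap, and Herb overlapped with Saline. The sum fell by 0.82 ± 0.166 in OVA vs. Saline (limma adjusted p = 0.00219) and rose by 0.52 ± 0.155 in Herb vs. OVA (limma adjusted p = 0.0250), whereas rescaling turned both values to 0.18 (limma adjusted p = 0.286) and -0.06. The call in Herb vs. OVA was lost without OVA replicate 1 (limma adjusted p = 0.0874), Herb replicate 2 (0.0597) or Herb replicate 4 (0.0528), and with a replicate block (0.0854). The sum was steadier than its rows. NM_001077404 stood at 3.91, 2.90 and 4.07 in the Saline libraries, 3.50, 2.89 and 0 in those of OVA, and 4.13, 0, 2.75 and 3.68 in those of Herb, in FPKM. NM_001077403 stood at 2.90, 1.72 and 1.16, then 0.0102, 0.0185 and 4.69, then 0.0175, 2.26, 0 and 0. Where the first of these rows was listed at 0, in OVA replicate 3 and Herb replicate 2, the second was at its highest within the group. How fragments were shared out over the rows was not tested.

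Vegfb (chr19:6982472-6987651), a ligand of FLT1, was at 3.14, 4.14 and 3.85 FPKM in Saline, 1.21, 1.305 and 1.94 in OVA, and 2.81, 2.37, 1.78 and 2.63 in Herb. Saline was the highest group without overlap, and Herb replicate 3 fell within the range of OVA. The sum fell by 0.93 ± 0.164 in OVA vs. Saline (limma adjusted p = 0.00104), rose by 0.45 ± 0.153 in Herb vs. OVA (limma adjusted p = 0.0390) and was lower in Herb vs. Saline at -0.48 ± 0.153 (limma adjusted p = 0.0488). The Herb vs. OVA call was lost in 6 and the Herb vs. Saline call in 8 of the 10 fits that left out a library, and both were lost without a filter and with a replicate block. After rescaling the 3 values were -0.12, 0.01 and -0.12. Of its 2 rows NM_011697 carried the larger part in 7 libraries and NM_001185164 was listed at 0 in 5.

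Vegfc (NM_009506, chr8:54077532-54186454), the lymphatic ligand, was at 2.43, 1.59 and 2.19 FPKM in Saline, 1.22, 1.49 and 0.778 in OVA, and 1.58, 1.78, 1.87 and 1.34 in Herb. OVA was below Saline without overlap, by a small margin. It fell by 0.51 ± 0.168 in OVA vs. Saline (limma adjusted p = 0.0249), which did not pass without Saline replicate 1, Saline replicate 3 or OVA replicate 3, and rescaling turned the value to 0.19 (limma adjusted p = 0.420). Herb vs. OVA was 0.30 as deposited (limma adjusted p = 0.146).

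Pgf (chr12:85166637-85177785), which encodes PlGF, was at 1.63, 1.28 and 1.24 FPKM in Saline, at 1.15 in each OVA library, and at 1.85, 0.625, 1.54 and 1.53 in Herb. OVA was just below Saline without overlap, and Herb held both the highest and the lowest library. The differences were -0.14 in OVA vs. Saline (limma adjusted p = 0.560) and 0.12 in Herb vs. OVA (limma adjusted p = 0.633). After rescaling the first of these was 0.51 (limma adjusted p = 0.0846).

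**Figure D2:**
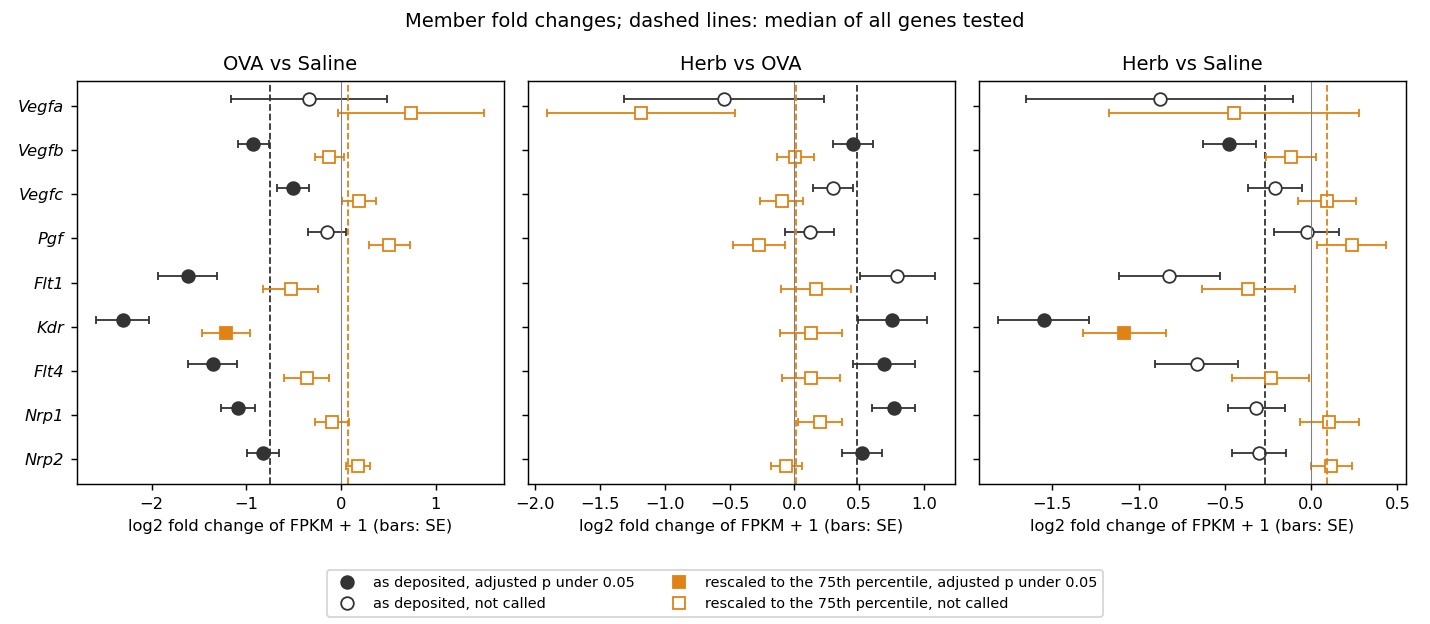
Log2 fold change of each VEGF gene with its SE (horizontal axis, on the log2(FPKM + 1) scale) for OVA vs. Saline, Herb vs. OVA and Herb vs. Saline, as deposited and after rescaling to a common 75th percentile. Kdr stays below 0 in OVA vs. Saline in both scalings, at -2.31 and -1.21, while Nrp2 moves from -0.82 to 0.18.

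Vegfa summed over its 9 named rows was at 16.5, 15.3 and 12.9 FPKM in Saline, 8.10, 12.2 and 15.4 in OVA, and 25.9, 19.9, 2.68 and 1.65 in Herb. OVA overlapped with Saline, and the Herb libraries fell into a pair above and a pair below all Saline libraries. The sum differed by -0.34 ± 0.824 in OVA vs. Saline (limma adjusted p = 0.743), -0.54 ± 0.771 in Herb vs. OVA (limma adjusted p = 0.589) and -0.88 in Herb vs. Saline (limma adjusted p = 0.421). After rescaling these were 0.74 (limma adjusted p = 0.471), -1.19 (limma adjusted p = 0.325) and -0.45. No difference of the named sum passed. After rescaling, however, every OVA library (14.0 to 23.4) lay above every Saline library (8.86 to 11.3). The SE comes from all 3 groups together, and Herb had the widest spread, with a rescaled SD of 10.8.

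The named rows are not all of the signal at this place of the table. The table lists rows by position, with 97.7% of 23702 neighbouring pairs of symbols in ascending order, and among the 9 Vegfa rows stood 7 assembled rows without a symbol that share 1 locus number. Their running numbers leave out 9 numbers, as many as there are Vegfa rows. The table gives no coordinates, and whether these rows are transcripts of Vegfa was not tested, so they are called the unnamed rows of the locus. They summed to 28.5, 19.1 and 26.7 FPKM in Saline, 49.8, 32.7 and 10.7 in OVA, and 27.4, 24.2, 41.7 and 29.4 in Herb, and held 41.0 to 94.7% of the locus in the 10 libraries.

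Named and unnamed rows together came to 45.0, 34.5 and 39.6 FPKM in Saline, 57.9, 44.9 and 26.1 in OVA, and 53.3, 44.1, 44.4 and 31.0 in Herb. The highest Herb library was 1.72 times the lowest, against 15.7 times for the named rows alone, and all groups overlapped. In OVA the spread was wider with the unnamed rows, at 2.22 times against 1.90, and in Saline it was 1.305 times against 1.28. As deposited the locus differed by 0.05 in OVA vs. Saline (limma adjusted p = 0.901), 0.06 in Herb vs. OVA (limma adjusted p = 0.886) and 0.10 in Herb vs. Saline (limma adjusted p = 0.810). After rescaling it was at 30.8, 23.8 and 27.2 in Saline, 100.1, 62.3 and 39.6 in OVA, and 48.4, 37.8, 48.8 and 30.5 in Herb. OVA then lay above Saline without overlap, with a log2 fold change of 1.18 ± 0.316 (limma adjusted p = 0.0165). This call was lost without Saline replicate 2 (1.09, limma adjusted p = 0.0566). The rescaled differences were -0.62 in Herb vs. OVA (limma adjusted p = 0.219) and 0.57 in Herb vs. Saline (limma adjusted p = 0.218).

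The largest unnamed rows varied between mice of 1 group. The row numbered 11 in the locus was listed at 0 in all Saline libraries, in OVA replicates 2 and 3 and in Herb replicate 2, and at 28.6 FPKM in OVA replicate 1 and 10.5, 30.9 and 20.8 FPKM in Herb replicates 1, 3 and 4. The row numbered 10 was at 18.7, 4.39 and 18.1 FPKM in Saline, 2.5995, 24.1 and 3.61 in OVA, and 13.7, 2.65, 3.55 and 1.42 in Herb. Both overlapped between all groups.

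**Figure D3:**
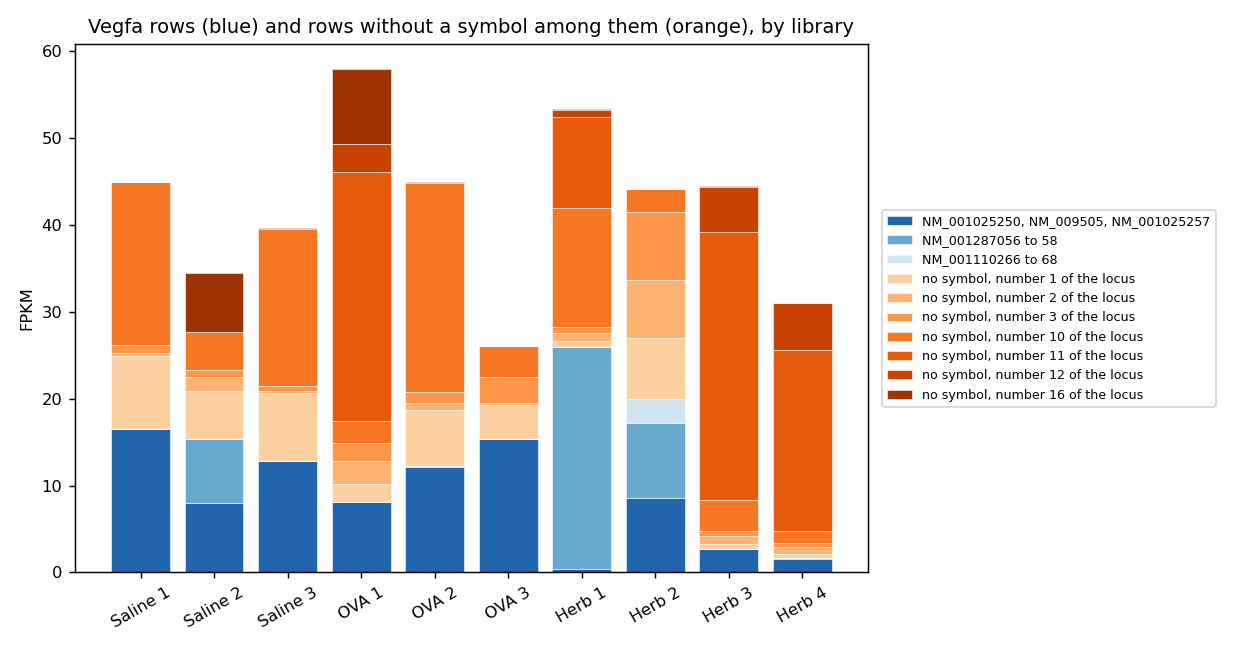
FPKM of the named Vegfa rows (blue) and of the unnamed rows of the locus (orange) in each of the 10 libraries, as stacked bars from 0. The named rows reach 25.9 FPKM in Herb replicate 1 and 1.65 in Herb replicate 4, while the whole bars of Herb run from 31.0 to 53.3.

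Of the 16 rows of the family that were tested, 5 fell in OVA vs. Saline, against 41.1% of all rows, and after rescaling 1 rose and 1 fell, against 25.2% in either direction. In Herb vs. OVA 1 rose, against 31.7%, and 2 fell, against 0.672%, and after rescaling 1 fell, against 0.315%. In Herb vs. Saline 2 fell, against 6.26%, and 2 fell after rescaling, against 2.65%. NM_001025250, which holds both exons, was at 9.77, 5.12 and 8.78 FPKM in Saline, 2.71, 5.31 and 5.42 in OVA, and 0.142, 3.91, 0.901 and 0.487 in Herb. All Herb libraries lay below all Saline libraries, and the row was lower in Herb vs. Saline by a log2 fold change of -2.11 ± 0.467 (limma adjusted p = 0.0304; -1.83 and 0.0412 after rescaling). This call was lost under quantile normalization, with a pseudocount of 0.1, without a filter, and without any 1 of the Saline libraries or of Herb replicates 1, 3 and 4. It was also lost with a replicate block (limma adjusted p = 0.105). The row also passed in Herb vs. OVA as deposited, at -1.41 ± 0.467 (limma adjusted p = 0.0451). That call was lost in 9 of the 10 fits that left out a library, after rescaling (-1.91, limma adjusted p = 0.0847), under quantile normalization, with a pseudocount of 0.1, without a filter and with a replicate block. With only the groups compared in the fit it was lost as well (limma adjusted p = 0.0763).

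NM_009505, which lacks exon 6, was at 5.57, 1.92 and 3.31 FPKM in Saline, 2.86, 5.69 and 5.22 in OVA, and 0.134, 2.35, 0.987 and 0.591 in Herb. Each Herb library was below each OVA library. The log2 fold change in Herb vs. OVA was -1.55 ± 0.396 (limma adjusted p = 0.0213; -2.04 and 0.0489 after rescaling). It did not pass without OVA replicate 1, 2 or 3 or Herb replicate 1, where the adjusted p lay between 0.0510 and 0.0585. With a replicate block it did not pass either (limma adjusted p = 0.0700, and 0.145 after rescaling). In the Herb libraries the unnamed rows held 51.3 to 94.7% of the locus, whose total overlapped between Herb and OVA.

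NM_001025257, which lacks exons 6 and 7, was at 1.12, 0.911 and 0.7497 FPKM in Saline, 2.51, 1.18 and 4.73 in OVA, and 0.126, 2.30, 0.788 and 0.478 in Herb. All OVA libraries lay above all Saline libraries, with a log2 fold change of 0.88 (limma adjusted p = 0.125), and of 1.45 ± 0.429 after rescaling (limma adjusted p = 0.0373). Herb vs. OVA was -0.99 (limma adjusted p = 0.0827). Rows NM_001287056, NM_001287057 and NM_001287058 were near 0 in most libraries, and the first and last of them were paired with transcripts whose coding sequence begins further downstream. NM_001287056 reached 4.18 FPKM in Saline replicate 2, 16.8 in Herb replicate 1 and 3.46 in Herb replicate 2, and was at 0.0495 FPKM or below elsewhere. In Herb replicate 1 these 3 rows held 98.5% of the named sum, against 0.0288 to 0.247% in the OVA libraries.

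A share within the gene does not depend on the scaling between libraries. Of the FPKM in the 6 paired rows, those with exons 6 and 7 held 59.4, 60.7 and 68.4% in Saline, 33.6, 43.6 and 35.2% in OVA, and 65.3, 43.0, 33.7 and 32.6% in Herb. Every OVA library lay below every Saline library, and Herb replicate 1 lay within Saline. The mean share differed by -25.4 percentage points in OVA vs. Saline (two-sided exact permutation test, p = 0.1, the smallest that 3 against 3 libraries can give; 0.343 after Benjamini-Hochberg adjustment over 9 tests). The share of the rows with exon 7 only was 28.6% ± 4.51 in Saline and 38.7% ± 6.97 in OVA (SD, n = 3), 10.1 points higher and without overlap (exact permutation p = 0.1). The rows with neither exon held 6.78, 12.9 and 5.83% in Saline, 31.0, 9.71 and 30.8% in OVA, and 7.25, 27.8, 29.5 and 29.7% in Herb, which overlapped. These shares leave out the unnamed rows, whose exons are not known here.

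Ratios between receptors of 1 library also do not depend on scaling, apart from the pseudocount. Flt1 was at 0.716, 0.762 and 0.501 times the FPKM of Kdr in Saline, at 1.013, 1.24 and 0.950 times in OVA, and at 1.56, 0.909, 1.20 and 0.837 times in Herb. Every OVA and Herb library lay above every Saline library. On the scale of log2 (FPKM + 1) the difference was 0.69 in OVA vs. Saline (exact permutation p = 0.1, the smallest possible) and 0.73 in Herb vs. Saline (exact permutation p = 0.0571, the smallest possible with 3 against 4), with an adjusted p of 0.214 over 15 tests for both.

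Nrp1 stood at 0.179 to 0.228 times Kdr in Saline, 0.447 to 0.487 times in OVA and 0.355 to 0.588 times in Herb. Flt4 stood at 0.224 to 0.248, 0.395 to 0.461 and 0.344 to 0.593 times Kdr. Both ratios separated Saline from the other groups without overlap, and the log2 differences were 1.22 and 0.95 in OVA vs. Saline and 1.23 and 0.89 in Herb vs. Saline, at the same smallest possible p. In Herb vs. OVA the ratios of Flt1, Nrp1 and Flt4 to Kdr differed by 0.04, 0.01 and -0.07, within the spread between mice. With named rows Kdr was lower relative to Nrp1 and Flt4 in every OVA and Herb library than in any Saline library.

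Kdr and Flt1 also had unnamed rows matched to them, 2 on 1 side of Kdr and 6 around Flt1, while no such row was matched for the other 6 genes. The rows matched to each gene shared 1 locus number, which leaves out 1 running number, as each gene has 1 row. A match by 1 number is weak, and whether these rows are transcripts of Kdr or Flt1 was not tested. With these rows Kdr came to 48.8, 40.3 and 57.5 FPKM in Saline, 11.6, 15.2 and 7.82 in OVA, and 22.5, 29.8, 15.7 and 18.2 in Herb. The fall in OVA vs. Saline was -2.02 ± 0.286 on the log2 scale (limma adjusted p = 0.000335), and after rescaling it was -0.92 (limma adjusted p = 0.0147). In Herb vs. Saline after rescaling, Kdr no longer passed (-0.71, limma adjusted p = 0.0623). Flt1 with its unnamed rows differed by -1.62 in OVA vs. Saline (limma adjusted p = 0.00123) and passed in Herb vs. OVA as deposited (0.83, limma adjusted p = 0.0376). With these rows the ratios of Flt1, Nrp1 and Flt4 to Kdr differed by 0.40, 0.94 and 0.67 in OVA vs. Saline, again without overlap. For Herb vs. Saline they differed by 0.37, with overlap between the groups (exact permutation p = 0.114), and by 0.85 and 0.51 without overlap (exact permutation p = 0.0571 for both, the smallest possible).

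For Vegfa against Kdr the choice of rows mattered more. With named rows Vegfa was at 0.244 to 0.401 times Kdr in Saline, 0.803 to 2.61 times in OVA and 0.126 to 1.91 times in Herb, so Herb overlapped with both. The log2 ratio was 1.97 higher in OVA than in Saline (exact permutation p = 0.1, the smallest possible). With the unnamed rows of both loci the log2 ratio was -0.12, -0.22 and -0.53 in Saline, 2.22, 1.504 and 1.62 in OVA, and 1.21, 0.55, 1.45 and 0.74 in Herb. The 3 groups were then separate, with OVA highest and Herb between. OVA exceeded Saline by 2.07 (exact permutation p = 0.1), Herb lay 0.80 below OVA and 1.27 above Saline (exact permutation p = 0.0571 for both), each the smallest p possible and 0.15 after adjustment over 12 tests. This sum was formed after seeing the table, and whether its unnamed rows belong to either gene was not tested.

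**Figure D4:**
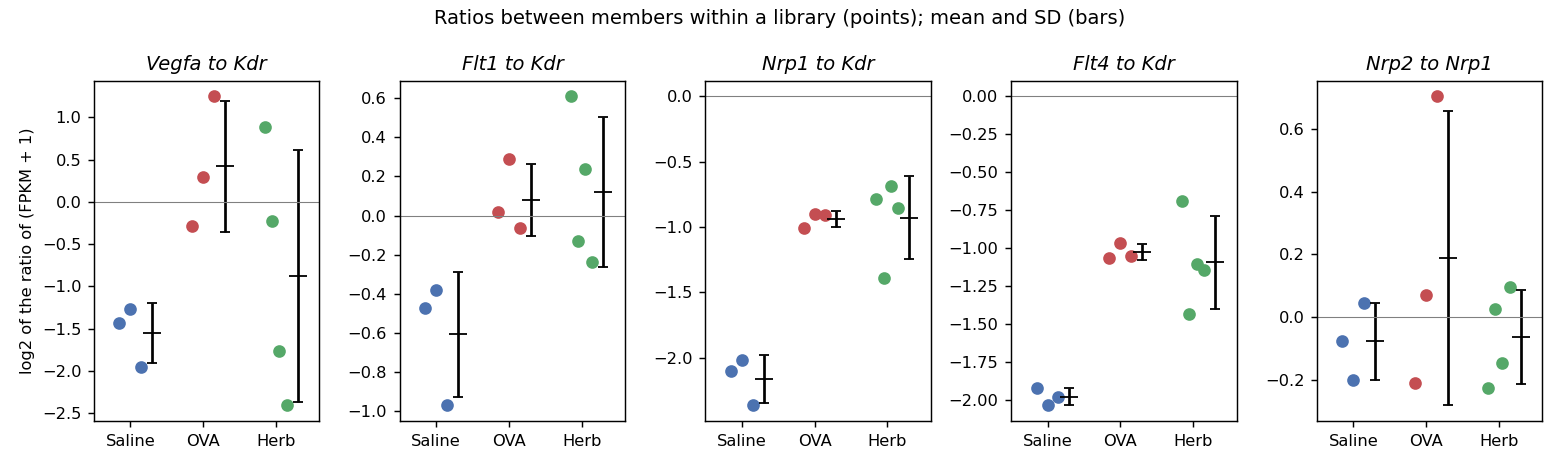
Log2 ratios of (FPKM + 1) between named rows of pairs of genes within each library (points), with the mean and SD of the group (bars), for Saline, OVA and Herb. The OVA and Herb points of Flt1, Nrp1 and Flt4 to Kdr all sit above the Saline points, whereas the Herb points of Vegfa to Kdr are spread over both other groups.

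To set the receptors against the cells that carry them, each gene was compared with the mean log2 level of 15 endothelial markers of the same library. Kdr lay 1.16 above this mean in Saline, 0.15 in OVA and 0.07 in Herb. The difference was -1.01 in OVA vs. Saline (exact permutation p = 0.1) and -1.09 in Herb vs. Saline (exact permutation p = 0.0571), both without overlap and the smallest p possible, with 0.386 after adjustment over 27 tests. Flt1 lay 0.56, 0.23 and 0.19 above, with overlap. Flt4, at -0.81, -0.88 and -1.02, overlapped as well. Relative to the same mean Nrp1 was higher by 0.21, Vegfa by 0.95, Vegfc by 0.78 and Pgf by 1.15 in OVA vs. Saline, each without overlap (exact permutation p = 0.1, 0.386 adjusted). Vegfc and Pgf lie near the pseudocount of 1, where this scale understates a fall more than it does for the abundant markers. The marker mean also holds Esam, at 1.1e-05 FPKM in Saline and 3.89 in OVA. With the unnamed rows the difference of Kdr was -0.73 in OVA vs. Saline and -0.71 in Herb vs. Saline, and that of Flt1 was -0.33 in OVA vs. Saline without overlap. The summed endothelial markers themselves were at 602 to 721 FPKM in Saline, 144 to 233 in OVA and 308 to 551 in Herb. Of 14 tested 9 fell in OVA vs. Saline as deposited and 6 after rescaling, beside 57.9% and 17.2% of all genes. Their part in the receptor values was not tested.

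Some other genes of blood vessels fell with the receptors in OVA vs. Saline. Beside the counts that follow, 57.9% of all genes fell as deposited and 17.2% after rescaling. Among endothelial markers the adhesion gene Cdh5 fell from 128.9 to 13.3 FPKM (log2 fold change -3.25, limma adjusted p = 0.000193; -2.13 after rescaling), Ramp2, a partner of the adrenomedullin receptor, by -3.57 (-2.51 after rescaling), and Clec14a by -2.61 (-1.500 after rescaling). These had the largest falls, and 6 of 14 endothelial markers fell after rescaling. Pecam1 (-0.36, limma adjusted p = 0.438) and Tie1 (-0.01, limma adjusted p = 0.984) did not pass after rescaling. Egfl7 (0.91), Robo4 (0.85), Vwf (0.49), Tek (0.42) and Esam (2.25) were then above 0, and none of them passed. Of the 10 markers of lung capillary subtypes 9 fell as deposited and 4 after rescaling, with median changes of -2.11 and -1.001 beside -0.75 and 0.07 for all genes. Ednrb, of the aerocytes that face the alveolar gas, fell by -2.91 (-1.96 after rescaling, limma adjusted p = 0.00195), as did Fibin, by -2.91 (-1.92). Gpihbp1, of general capillaries, fell by -2.20 as deposited and was at -1.13 after rescaling (limma adjusted p = 0.213). The other calls after rescaling were Plvap (-1.07, limma adjusted p = 0.00708) and Car4 (-0.93, limma adjusted p = 0.00387). Apln (-0.52, limma adjusted p = 0.215) and Tbx2 (0.90, limma adjusted p = 0.209) did not pass. A difference between capillary types was not tested. Of 6 lymphatic markers tested 4 fell, and 3 did after rescaling, among them the hyaluronan receptor Lyve1 (-2.85 and -1.76) and Pdpn (-3.01 and -1.99), which alveolar type 1 cells also express. Sox18 (0.36, limma adjusted p = 0.718) and Thy1 (0.18, limma adjusted p = 0.539) were above 0 after rescaling and did not pass. Prox1 was too low to be tested, at means of 0.259 FPKM in Saline, 0.228 in OVA and 0.348 in Herb. A change in lymphatic endothelium was not tested.

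Markers of the alveolar epithelium, the main source of VEGF-A in lung, fell as well. Beside the counts that follow, 57.9% of all genes fell as deposited, and 17.2% fell and 24.1% rose after rescaling. All 6 alveolar type 1 markers tested fell as deposited and 5 after rescaling, with medians of -2.82 and -1.69, led by Cav1 (-3.18), Hopx (-3.13) and Clic5 (-2.99). Of 8 alveolar type 2 markers 6 fell as deposited and 5 after rescaling, including surfactant protein Sftpc (-3.27 and -2.11) and Lamp3 (-3.25 and -2.16). Their summed level was 3369 to 4402 FPKM in Saline, 472 to 822 in OVA and 1090 to 1990 in Herb. Airway markers went both ways, with Clca1 of mucous cells at a mean of 0.0181 FPKM in Saline and 283 FPKM in OVA (limma adjusted p = 0.00305, and 0.00499 after rescaling). Leukocyte markers summed to 67.3 to 462 FPKM in Saline, 19.5 to 37.3 in OVA and 47.2 to 134 in Herb. Much of the Saline sum was S100a9, at a mean of 183 FPKM against 0.317 in OVA (limma adjusted p = 0.0858), so the sum is no count of leukocytes. Of 10 tested 5 were lower as deposited. After rescaling 1 was higher, Itgax (1.95, limma adjusted p = 0.00619), and 1 lower, Siglecf (-0.59, limma adjusted p = 0.0431). Of 10 fibroblast and pericyte markers 6 fell as deposited, near the share of all genes, and 5 rose and 4 fell after rescaling. How far these cell markers bear on the VEGF genes was not tested.

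Ligands and receptors of related angiogenic systems showed a fall that rescaling left in part. Of 15 tested 12 fell in OVA vs. Saline and 6 did after rescaling, beside 57.9% and 17.2% of all genes. The medians were -1.39 and -0.57. Figf, which encodes VEGF-D and is the family's remaining ligand gene in the table, was at 16.8 FPKM in Saline, 2.52 in OVA and 9.24 in Herb on average, and fell by 2.40 (limma adjusted p = 0.000321) as deposited. Its rescaled change was -1.44 (limma adjusted p = 0.00657). It rose by 1.55 in Herb vs. OVA (limma adjusted p = 0.00772), against 1.04 after rescaling (limma adjusted p = 0.0815). Angpt1, the ligand of the endothelial receptor TEK, fell by 2.72 and by 1.77 after rescaling, and Efnb2, of arterial endothelium, fell by 2.35 and by 1.29 after rescaling.

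Genes of the VEGF signalling list, which act downstream of the receptors, fell about as often as all genes did. Of 29 VEGF signalling genes 18 fell and 1 rose in OVA vs. Saline as deposited, beside 57.9% of all genes that fell, and 4 fell and 5 rose after rescaling, beside 17.2% that fell, with a median of -0.03. Rac1, a small GTPase of cell movement, fell by 2.58 as deposited and 1.48 after rescaling, and the stress protein gene Hspb1 fell by 2.09 and 1.09. Of 10 genes known to respond to VEGF in endothelium 8 fell as deposited, and 3 fell and 2 rose after rescaling, beside the same shares of all genes. Among them the tip cell gene Esm1 fell by 2.86 (-2.05 after rescaling) and the Notch target Hey1 fell by 2.05 (-1.13 after rescaling). Dll4 fell by 2.20 as deposited and did not pass after rescaling (-1.40, limma adjusted p = 0.151). Of 9 class 3 semaphorins and plexins, the other partners of the neuropilins, 5 fell as deposited and 3 after rescaling, again beside those shares. Sema3c was at -3.17 and -2.13 and Sema3a at -2.02 and -1.17. Sema3g was at -2.68 as deposited and did not pass after rescaling (-1.805, limma adjusted p = 0.101).

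The hypoxia pathway, whose transcription factors drive Vegfa in other settings, had shares of lower genes near those of all genes in OVA vs. Saline. Of 7 regulators tested 5 fell as deposited, beside 57.9% of all genes, and 1 after rescaling, beside 17.2%: Epas1, which encodes HIF-2 alpha and is abundant in lung endothelium, fell from 346.9 to 52.9 FPKM (log2 fold change -2.81, limma adjusted p = 0.000574; -1.66 after rescaling). Of 10 hypoxia targets 6 fell as deposited, and 2 fell and 1 rose after rescaling, with Bnip3 at -2.68 and -1.69 and Ddit4 at -1.94 and -0.97. Adm fell by 1.46 as deposited and did not pass after rescaling (-0.68, limma adjusted p = 0.136).

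In Herb vs. OVA the lists differed in how many genes rose as deposited, beside 44% of all genes. Among vascular lists 7 of 14 endothelial, 7 of 10 capillary and 2 of 6 lymphatic markers rose. Of other cell types 4 of 6 alveolar type 1, 5 of 8 alveolar type 2, 1 of 7 airway, 3 of 10 leukocyte and 4 of 10 fibroblast and pericyte markers rose. Of pathway genes 5 of 7 hypoxia regulators, 5 of 10 hypoxia targets, 14 of 29 signalling genes, 3 of 10 genes of the endothelial VEGF response, 4 of 9 semaphorins and plexins and 6 of 15 other angiogenic genes rose. After rescaling 1 signalling gene fell. Over all lists the only gene that rose after rescaling was the collagen gene Col1a2, which stood at 0 in each OVA library and rose in both scalings (limma adjusted p = 0.0251). The lists were drawn up with earlier results of these data known and describe the libraries only.

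**Figure D5:**
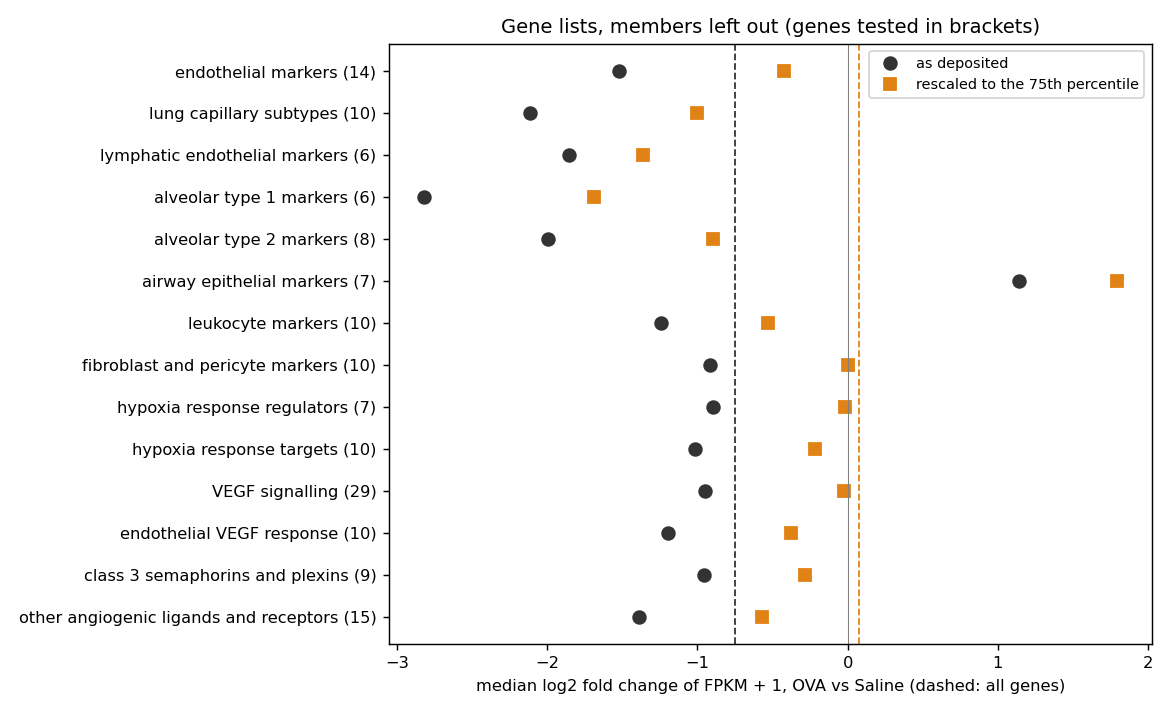
Median log2 fold change of each of 14 gene lists in OVA vs. Saline (horizontal axis, log2(FPKM + 1) scale), as deposited (circles) and after rescaling (squares), with dashed lines at the medians of all genes. Capillary and alveolar lists stay below the median of all genes in OVA vs. Saline in both scalings, at -2.11 and -1.001 for the capillary list.

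Over the 10 libraries after rescaling, the 5 genes whose levels were most like Kdr were Atp11a (Pearson r = 0.963), Maoa (0.961), Hilpda (0.960), Gimap4 (0.954) and Pxdn (0.954), of 11204 genes compared, and 93 genes had r over 0.9. For Flt1 they were Zbtb10 (0.984), Abca8b (0.976), Baiap2l1 (0.965), Crym (0.963) and Abca8a (0.961), with 47 over 0.9. The named Vegfa sum had 1 gene over 0.9, Zfp747 (0.915), followed by Arl13b (0.851), Ash1l (0.849), Kif3b (0.817) and Fam21 (0.808). These values describe libraries that fall into groups and share the same scaling, and no test was made of them.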

How the data were processed

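Lung RNA-seq of 10 mice was analysed, in the groups given by the sample labels. The labels name Trizol and a TruSeq RNA kit, whereas the methods of the study name another extraction kit and a stranded mRNA kit. According to the labels' processing notes the authors used cutadapt 1.10, HISAT2, StringTie 1.3.3b and edgeR 3.16.5 with mm10, and they deposited 1 table of FPKM per transcript row, with no counts. FPKM carries no scaling between libraries beyond depth, so a class of RNA that takes more of a library lowers all other values.

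Because the values are FPKM, limma 3.58.1 (R 4.3.3, lmFit, eBayes with trend) replaced the count test of the study. Rows were summed per symbol, log2(FPKM + 1) was fitted for all 10 libraries with 3 group means, for the 11205 symbols or 30194 rows whose mean reached 1 FPKM. Benjamini-Hochberg adjustment ran over all of these, and a call is an adjusted p under 0.05. Fold changes on this scale understate those of low genes. The fit was tested on simulated data. In the rescaled fits each library was divided to a common 75th percentile, and sums and rows used their own percentile. Single values were compared by two-sided exact permutation tests, whose smallest p is 0.1 for 3 against 3 and 0.0571 for 3 against 4. The study gives n = 3, 3 and 4 for samples from mice of the groups, and each library was taken as 1 mouse. Depth was estimated from the smallest FPKM steps of genes with 1 row. Exons came from GENCODE vM21, and gene positions and the windows before starts from RefSeq, both on GRCm38.p6. Python 3.11.15 with pandas 2.3.3 and scipy 1.17.1 was used.

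The members and the 14 gene lists were chosen with earlier results of these data known. Named were all members, genes among the 3 calls with the largest change per list and comparison, some other genes of the lists, and the 5 genes most like Vegfa, Kdr and Flt1. Rows without a symbol were left out of the fits on sums except where stated, and that use, the exon classes and the blocked rescaled fit were chosen after seeing the data.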

Additional observations from a re-analysis of the deposited data

Results flagged for a closer look

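Of the 41 sets of 4 Herb values examined, 9 had 1 library far from the other 3 by Dixon's 95% criterion, which independent normal values meet about 1 time in 20. The sets are not independent, since Kdr enters as its sum and as its only row and several sets are rows of 1 gene. Many rows are also near 0, so the count cannot be set against that rate. Kdr was at 23.441 FPKM in Herb replicate 2, as its sum and as its only row NM_010612, against 11.56 to 13.591 FPKM in the other Herb libraries. In the same library the Nrp2 row NM_001077403 was at 2.2568 FPKM, against 0.0175 or less in the others, and the Nrp2 row NM_001077405 was listed at 0, against 1.5461 to 1.572 FPKM. The Vegfa rows NM_001110266, NM_001110267 and NM_001110268 were at 1.0921, 0.87838 and 0.78624 FPKM in Herb replicate 2, against 0.002891 FPKM or less in the other Herb libraries. The Nrp2 row NM_010939 was at 1.5246 FPKM in Herb replicate 4 and listed at 0 in the others. The share of Vegfa rows with neither exon 6 nor exon 7 was 7.2549% in Herb replicate 1, against 27.771 to 29.745% in the other Herb libraries. Without Herb replicate 2 the rise of Kdr in Herb vs. OVA was 0.55 on the log2 scale and did not pass (limma adjusted p = 0.0804). What sets these libraries apart was not tested.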

How the results depend on the processing

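The number of members called depended above all on the scaling between libraries. As deposited it was 7 in OVA vs. Saline, 5 in Herb vs. OVA and 2 in Herb vs. Saline. It was 1, 0 and 1 after rescaling to the 75th percentile, 0, 0 and 0 under quantile normalization, and 2, 0 and 0 after rescaling with the unnamed rows of the locus numbers. In Herb vs. OVA it was 2 without a filter and 2 with only the groups compared in the fit, and in Herb vs. Saline it was 1 with a pseudocount of 0.1 and 1 without a filter. Leaving out 1 library at a time gave 6 to 7, 1 to 5 and 1 to 4. Transcript rows called were 5, 3 and 2 as deposited, 2 and 1 in the first 2 comparisons after rescaling, and 1, 1 and 0 under quantile normalization. In Herb vs. Saline the rows called were 1 with a pseudocount of 0.1 and 1 without a filter. Leaving out libraries gave 4 to 7, 0 to 4 and 0 to 3 rows.

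Rescaling turned the direction of Nrp2 (0.1795), Pgf (0.5111), Vegfa (0.7406) and Vegfc (0.1898) in OVA vs. Saline, of Nrp2 (-0.0636), Pgf (-0.2747) and Vegfc (-0.0992) in Herb vs. OVA, and of Nrp1 (0.1052), Nrp2 (0.1159), Pgf (0.2364) and Vegfc (0.0906) in Herb vs. Saline. Quantile normalization turned Nrp2 (0.1809), Pgf (0.307) and Vegfa (1.0434), then Nrp2 (-0.076), Pgf (-0.2683) and Vegfc (-0.1047), then Nrp1 (0.1062), Nrp2 (0.105) and Pgf (0.0387) in the same comparisons. With the unnamed rows Vegfa was at 0.0482, 0.0551 and 0.1033, and after rescaling with them at 1.1814 in OVA vs. Saline and 0.5654 in Herb vs. Saline. Among rows, NM_001025250 of Vegfa turned in OVA vs. Saline (0.0845 rescaled, 0.1904 quantile) and NM_001025257 in Herb vs. Saline (0.007 rescaled). NM_001077404 of Nrp2 turned in Herb vs. OVA (-0.0766 rescaled, -0.0901 quantile) and NM_001077407 in Herb vs. Saline (0.1098 rescaled, 0.0253 quantile). The causes were not tested.

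Among single genes and rows, leaving out 1 library turned 7 values: Vegfa in Herb vs. OVA ranged from -1.09 to 0.0257 and Pgf in Herb vs. Saline from -0.1214 to 0.1487. In Herb vs. OVA NM_001077403 ranged from -0.8414 to 0.4116 and NM_001077404 from -0.4417 to 0.7874. In Herb vs. Saline NM_001077407 ranged from -0.5951 to 0.435, NM_001025257 from -0.4169 to 0.1007 and NM_001287056 from -0.0764 to 1.5535. Vegfa in Herb vs. OVA turned without Herb replicate 4.

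Whether the replicate numbers pair the mice could not be settled. With the group means taken out, same-numbered libraries correlated at -0.00869 to 0.0953 over 9 pairs, and 2 of 9 libraries were most like one of their own number. In groups of 3 or 4 libraries such deviations cancel one another, so weak correlations cannot decide it. With a replicate block 2 members were called in Herb vs. OVA, 1 in Herb vs. Saline and 0 rows in Herb vs. Saline, and with the block after rescaling 1, 0 and 0 members and 2, 0 and 0 rows. Under the block Vegfa in Herb vs. OVA was 0.0257 and NM_001077407 in Herb vs. Saline 0.3544. With block and rescaling, Nrp2, Pgf, Vegfa and Vegfc in OVA vs. Saline were at 0.1795, 0.5111, 0.7406 and 0.1898. Nrp2, Pgf, Vegfb and Vegfc in Herb vs. OVA were at -0.0956, -0.3165, -0.0361 and -0.0488, and Nrp1, Nrp2, Pgf, Vegfa and Vegfc in Herb vs. Saline at 0.1255, 0.0838, 0.1946, 0.1055 and 0.141. Rows NM_001025250, NM_001077404, NM_001077407 and NM_001025257 were then at 0.0845, -0.2823, 0.4488 and 0.0791 in the comparisons named above. Over single genes, rows, ratios and lists, 1367 values under an alternative kept direction and call or moved by less than 1 SD, 117 kept the direction and lost the call, 13 gained one, 62 turned and 42 values without a call moved further. A planned share of fragments per Vegfa row was not run, because 3 rows had no transcript length here. Depth limits Vegfc most, at 39 fragments in its lowest library.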
